A study of Homo sapiens with 6 samples.

Results

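The response to transfection and sorting was compared between HGC-27 and AGS, with all 6 arrays of the series as members (6 of 6 samples, 3 per line). AGS is a gastric adenocarcinoma line, and HGC-27 is a gastric carcinoma line of undifferentiated type. In each line 1 array came from untransfected parental cells, 1 from cells given a GFP plasmid with empty vector (the GFP control), and 1 from cells given the GFP plasmid with a plasmid for MIST1, a transcription factor of secretory cells (+MIST1). Per the labels, 3 µg of vector and 1.5 µg of GFP plasmid were delivered by electroporation (Nucleofection). The transfected cells were sorted on GFP after 24 h and cultured for a further 24 h. No label says that the parental cells were put through the pulse or the sorter, and the labels name 2 culture media without tying them to a line. A response therefore holds plasmid, pulse, sorting and regrowth together, which cannot be told apart, and 1 of the 2 transfected arrays of a line also carries MIST1.

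Electroporation opens the plasma membrane for a short time and brings naked plasmid into the cell, where it can meet sensors of foreign DNA. Sorting adds shear, time in suspension and replating at a new density. Programs known to move under such handling include the unfolded protein response, which tunes endoplasmic reticulum chaperones to secretory load, and the integrated stress response, in which ATF4 turns on genes of amino acid supply. Density and spreading act on YAP and TEAD, a coactivator and its DNA-binding partners, and immediate early genes follow growth factor signals within minutes.

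For each gene the log2 parental intensity was subtracted from the log2 intensity of both transfected arrays of the same line, and the mean of these 2 changes is called the response. The difference is the HGC-27 response minus the AGS response. Where 3 values of a line are given, they stand in the order parental, GFP control, +MIST1. Values under 17.6, the 25th percentile of all values, were raised to that floor before log2, so a change that touches the floor is understated. The test of the difference was limma's, its p-values were adjusted by Benjamini-Hochberg across all 13738 genes, and genes with an adjusted p under 0.05 are called. Its spread is that between the GFP control and +MIST1 arrays of a line, 2 residual degrees of freedom in all. The parental state has 1 array per line and no label says whether cultures were repeated, so an odd parental array would pass into every response of its line. A line's own response has no test here.

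The labels of the lines were checked against markers. In AGS 9 of 10 epithelial markers lay above the median of all values (50.53) in every array, with a summed intensity of 48460 to 56460, and in HGC-27 2 or 3 did, with a sum of 1648 to 1896. Mesenchymal markers summed to 387 to 422 in AGS and 19260 to 21680 in HGC-27. Leukocyte markers summed to at most 144 and endothelial markers to at most 169 in any array. Fibroblast markers were far higher in HGC-27, where all 5 lay above the median in every array and the sum was at least 10870. For AGS that sum was 787 before transfection, 1454 with GFP alone and 1297 with MIST1. The source of the fibroblast marker signal was not tested. The 12 gastric and intestinal lineage markers summed to at least 6794 in every AGS array, but to at most 1233 in any HGC-27 array. As a measure of RNA of 1 line in arrays of the other, genes strong in 1 line and dim in the other were followed. Over 42 genes above 2000 in AGS parental cells with a mean under 50 in HGC-27, the median intensity was 24.4 in HGC-27 parental cells, 20.8 in its GFP control and 20.7 with MIST1. Over 27 genes of the reverse kind the medians in AGS were 22.84, 22.87 and 25.01. Several ribosomal RNA probe sets read lower after transfection in both lines. The probe set for the middle of 18S ribosomal RNA read 1142 in AGS parental cells and 48.2 and 46.8 in its transfected arrays, and 370.5, 52.0 and 52.7 in HGC-27. The 28S 5′ probe set read 1253, 427 and 425 in AGS and, for HGC-27, 873, 455 and 410. The part of these shifts in the differences below was not tested. GAPDH and ACTB showed no such step, with 3′ over 5′ ratios of 0.826 to 0.883 and 0.968 to 1.05.

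The lines answered transfection in part alike and in part apart. Of 13738 genes, 1401 were called (10.2%), with the HGC-27 response the higher for 1036 (7.54%) and the lower for 365 (2.66%). A difference of at least 2-fold together with the call held for 491 genes (3.57%), 316 with HGC-27 higher (2.3%) and 175 with it lower (1.27%). Across genes, which are not independent replicates, the AGS and HGC-27 responses had a Pearson r of 0.409 and a Spearman rho of 0.412, and no array enters both. The median response of all genes was 0.0017 in AGS and 0.11 in HGC-27, and the median difference was 0.12. The split by direction rests on that shift, since 73.9% of calls had HGC-27 higher with the deposited scaling, 50.7% after quantile normalization and 32.3% after centring each array on its median. For calls of at least 2-fold the shares were 64.4%, 46.8% and 32.5%. Counts of calls were also unstable. Leaving out any 1 of the 4 transfected arrays gave 0 calls by limma, with 2660 to 3803 genes at an unadjusted p under 0.05, and 43 genes passed limma's treat test against a difference of 1.5-fold.

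With a limit of 1.5-fold in both transfected arrays, 911 genes were higher than in parental cells in AGS (6.63%) and 666 lower (4.85%), and 1282 were higher (9.33%) and 503 lower (3.66%) in HGC-27. Of these, 304 were higher in AGS as well as HGC-27, and 146 were lower in both. A further 959 passed upward in HGC-27 with no pass in AGS, and the difference itself was called for 347 of them. The same held for 341 downward in HGC-27, with 115 called. In AGS 591 passed upward with no pass in HGC-27, with 119 called, and 501 passed downward, with 160 called. Taking the GFP control arrays alone, 755 genes differed at least 2-fold between the lines in their change from parental cells, and with the +MIST1 arrays 835 did. Both counts use the same parental arrays.

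**Figure D1:**
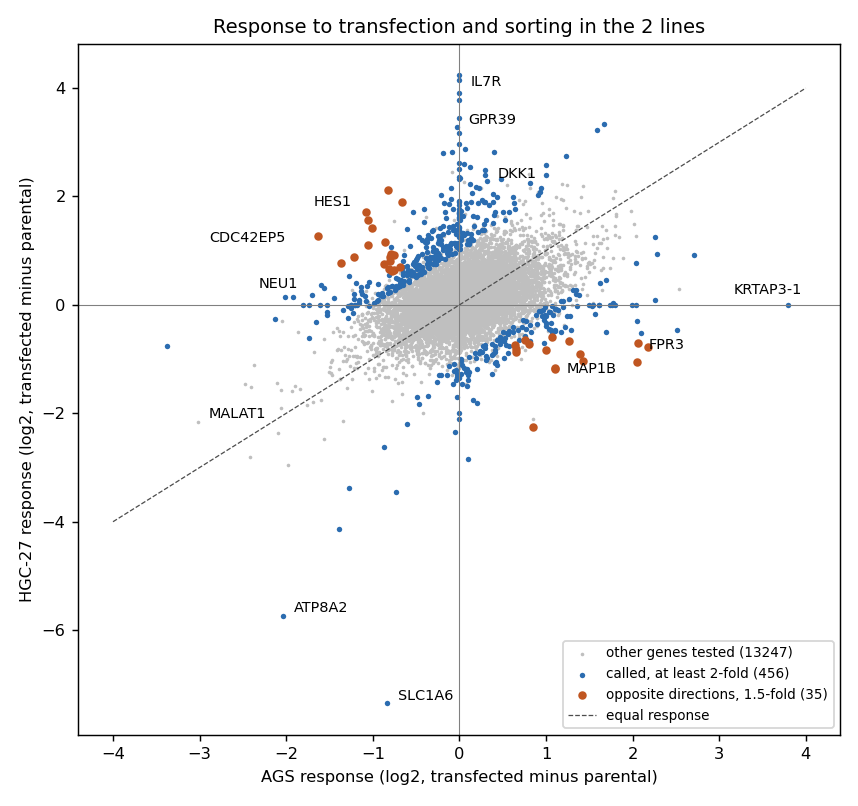
Each point is 1 gene, with the AGS response on the horizontal axis and the HGC-27 response on the vertical axis (log2, mean of 2 transfected arrays minus the parental array); blue points are called at 2-fold or more, and orange points are the 35 genes with opposite changes. IL7R and GPR39 lie on the upper vertical axis, with no AGS response, while HES1 and MAP1B lie in opposite corners and SLC1A6 stands alone at the bottom, at -7.35 in HGC-27.

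Among genes above the median of all values in at least 1 array of each line, GPR39 had the largest called difference with HGC-27 higher. GPR39, a zinc-sensing receptor, read 422 in AGS parental cells, 413 in its GFP control and 418.5 with MIST1, against 23.3, 213 and 240 in HGC-27. The 3 AGS values were nearly level, and both transfected HGC-27 values were far above the parental one. The difference was 3.30 (SE 0.18, limma adjusted p = 0.00249), and both other probe sets of GPR39 that passed the filter had the same sign, at 1.29 and 1.78. BMP4, a secreted ligand of the TGF-beta family, read 165, 144 and 145 in AGS against 40.7, 255 and 316 in HGC-27, a difference of 2.99 (SE 0.23, adjusted p = 0.00442). HES1, the repressor that Notch signalling induces, had opposite changes. It read 3259, 1524 and 1608 in AGS against 156, 465.5 and 452.5 in HGC-27, which is 2.08-fold lower and 2.95-fold higher. Its difference was 2.62 (SE 0.12, adjusted p = 0.00247), and the other HES1 probe set that passed the filter gave 1.29. Both probe sets agree in sign and differ in size, mostly in HGC-27, where the other read 223, 280 and 303.

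Among the other genes with the largest positive differences, CCDC80, which encodes a secreted matrix protein, read 266, 145 and 156 in AGS against 119, 532 and 496 in HGC-27 (difference 2.93, SE 0.17, adjusted p = 0.00249). POLD4, the small subunit of DNA polymerase delta, read 709, 681 and 806 in AGS. In HGC-27 it read 13.2 in parental cells, under the floor, then 116.5 and 144, so its difference of 2.82 is understated. MVP, the major vault protein, read 1274, 1696 and 1661 in AGS against 26.5, 171 and 203 in HGC-27, a difference of 2.42 (SE 0.18). CDC42EP5, an effector of the small GTPase CDC42, was dim, at most 60.9 in AGS and 108 in HGC-27, with a difference of 2.90 from an _x_at probe set, a kind that may also bind other transcripts. ACTL8, an actin-like gene of the testis, was dimmer still, at most 59.5 in any array, with a difference of 2.79 (SE 0.39).

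Where the HGC-27 response was the lower, 4 of the 8 largest called differences among genes above the median in both lines came from probe sets that their own genes did not back. The probe set for SLC1A6, a glutamate transporter, read 7119 in HGC-27 parental cells and 50.6 and 37.6 after transfection, and 3087, 1666 and 1791 in AGS. That is 163-fold lower in HGC-27 and 1.79-fold lower in AGS, and at -6.51 (SE 0.24, limma adjusted p = 0.00127) it was the largest difference of all genes tested. The 2 other SLC1A6 probe sets read between 5.47 and 22.1 in all 6 arrays. ATP8A2, a phospholipid flippase, read 940, 7.09 and 6.45 in HGC-27 by 1 probe set, the latter values under the floor. That probe set read 237.9, 65.55 and 51.23 in AGS, and the 2 other ATP8A2 probe sets read at most 20.4 in any array. LDAH, a hydrolase of lipid droplets, read 1367, 82.5 and 72.8 in HGC-27 against 721, 291 and 258 in AGS. Its difference was -2.75, but its 2 other probe sets gave 0.89 and 0.97. MINK1, a kinase, read 2783, 266 and 241 in HGC-27 against 1291, 740 and 821 in AGS. Its difference was -2.73, and its 2 other probe sets that passed the filter gave 0.15 and 0.62. The values of these 4 genes describe the probe sets, all lower after transfection in both lines. Which transcripts they read was not tested.

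The remaining 4 of these 8 genes were higher after transfection in AGS by the probe set that stood for each gene. RARRES2, which encodes the chemoattractant chemerin, read 25, 89.8 and 141 in AGS against 102.5, 54.4 and 66.2 in HGC-27, a difference of -2.95 (SE 0.41, adjusted p = 0.0185). C2orf72 read 46.6, 201 and 199 in AGS against 267, 181 and 189 in HGC-27 (difference -2.63, SE 0.17). Its 2 other probe sets showed no such rise in AGS, at 109, 93.1 and 111 and at 91, 86.7 and 78.8. Their differences were -1.90 and -0.04. ABCA3, a lipid transporter of lamellar bodies, read 15.6, 39.3 and 57.3 in AGS against 1017, 486 and 503 in HGC-27 (difference -2.47, SE 0.32). FAM81A read 47, 265 and 144 in AGS against 471, 195 and 267 in HGC-27. It differed by -3.10 (SE 0.51), and its 2 other probe sets gave -0.73 and 0.60, so its direction depends on the probe set.

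Opposite changes of at least 1.5-fold in all 4 transfected arrays were few. Lower in AGS and higher in HGC-27 were 19 genes (0.138% of those tested), and higher in AGS and lower in HGC-27 were 16 (0.116%). These genes were picked on the changes themselves, so their calls are no further evidence. The first set held HES1, CDC42EP5, ACTL8 and CCDC80, described above. SOCS3, an inhibitor of cytokine receptor signalling, read 259, 130.5 and 119 in AGS against 47.4, 83.6 and 123.5 in HGC-27. By this probe set the 2 lines met at nearly the same intensity with MIST1. The other SOCS3 probe sets did not pass the filter, and the brightest of them showed no rise in HGC-27. It read 70.55, 38.27 and 45.55 in AGS against 50.19, 48.8 and 49.04 in HGC-27. SYNC, an intermediate filament protein, read 87.7, 44 and 26.1 in AGS against 140, 240 and 239 in HGC-27. PHYHIPL read 95.2, 51.1 and 44 in AGS against 29.7, 89.1 and 70.2 in HGC-27.

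In the second set MAP1B, a microtubule-associated protein of neurons, read 44.6, 96.4 and 96 in AGS against 2115, 972 and 923 in HGC-27. All 3 of its probe sets gave a difference near -2, from -1.96 to -2.27. SALL2, a zinc finger transcription factor, read 146, 298 and 332 in AGS against 375, 156 and 176 in HGC-27. FPR3, a formyl peptide receptor, read 909, 3797 and 3789 in AGS but only 42.1, 25.6 and 26 in HGC-27, where it was dim throughout. The antisense RNA EPHA5-AS1 was dim in both lines, at most 55.1 in AGS and 97.5 in HGC-27. ABCA3, FAM81A and RARRES2 belong to this set too. Of the 19 genes lower in AGS, 14 had the higher parental level in AGS, and of the 16 lower in HGC-27, 14 had it in HGC-27. The gap between the lines was narrower after transfection for 24 of the 35 opposite genes (68.6%). It was narrower for 57.2% of the genes called at 2-fold and 53.1% of all genes. The parental arrays enter both the gap and the response, so these shares are only a description.

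**Figure D2:**
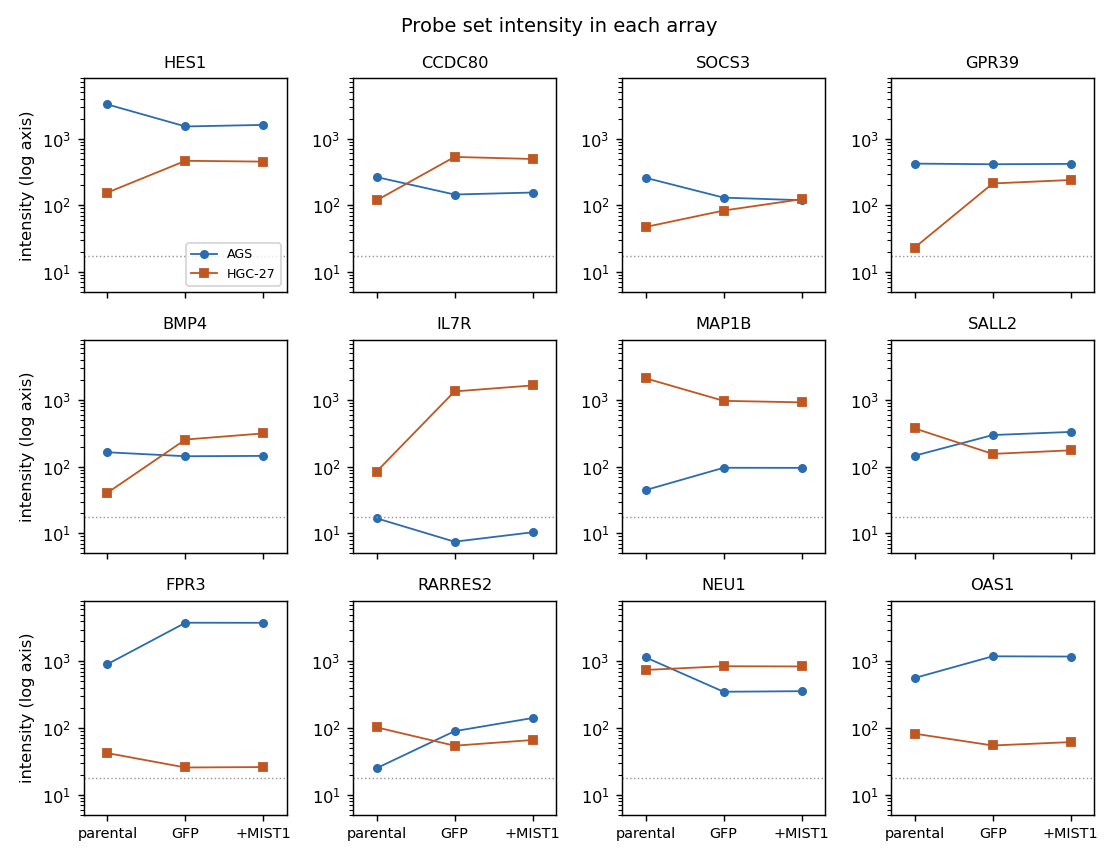
Probe set intensity (log axis) of 12 genes in the parental, GFP control and +MIST1 array of AGS (blue circles) and HGC-27 (orange squares), 1 array per point, with a dotted line at the floor of 17.6. HES1, CCDC80 and SOCS3 go down in AGS and up in HGC-27, MAP1B, SALL2, RARRES2 and FPR3 go the other way, and GPR39, BMP4 and IL7R step up in HGC-27.

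Another group lay above the median of all values in 1 line alone, so a response could be seen mainly there. IL7R, the interleukin-7 receptor, read 84.4 in HGC-27 parental cells and 1346 and 1654 after transfection, and its second probe set read 44.6, 589 and 700. CXCL14, a chemokine, went from 12.6 to 394 and 279, and SOST, which encodes the Wnt antagonist sclerostin, from 6.39 to 250 and 278. All 3 of the probe sets that stand for these genes were under the floor in every AGS array. The HGC-27 parental values of CXCL14 and SOST were under it too, which makes 18.8-fold and 15.0-fold lower bounds for these probe sets. A second CXCL14 probe set that passed the filter gave a smaller rise in HGC-27, at 25.78, 234.6 and 194, with a difference of 3.02. In the other direction KRTAP3-1, a hair keratin-associated protein, read 15.5, 180 and 333 in AGS and at most 10.5 in HGC-27, and the growth factor-like gene IGFL1 read 66.5, 397 and 360 in AGS and at most 25.7 in HGC-27. An arm held at the floor adds no spread to the fit, so adjusted p-values of IL7R, CXCL14, SOST and KRTAP3-1 are too small. The same holds for CCL2 and TNC, with AGS arms at the floor, and for ATP8A2, with both transfected HGC-27 arrays at it. The HGC-27 arm of IGFL1 was dim, at 25.7, 19.9 and 17.5, but not held at the floor.

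Replication-dependent histone genes had the largest shift of the 28 gene lists. These genes supply histones in S phase, and their usual transcripts end in a stem-loop without a poly(A) tail, so an oligo-dT based array sees the tailed fraction. Of 20 genes listed, 12 were tested, all 12 had a positive difference, and 7 were called with HGC-27 higher and 0 lower, or 58.3% against 10.2% of all genes. The median response was -0.43 in AGS and 0.53 in HGC-27, and the median difference 0.92, against 0.12 for all genes. H2AC6 read 454, 310 and 222 in AGS against 116, 268 and 222 in HGC-27 (difference 1.86, SE 0.31, adjusted p = 0.0244). H2BC9 read 403.5, 195 and 160 in AGS against 266, 347 and 360 in HGC-27 (difference 1.60, SE 0.20), again from an _x_at probe set. H4C8 was level in AGS at 38.4, 43.8 and 45.2 but went from 42.9 to 172 and 147 in HGC-27, and H2BC21 from 88.5 to 206 and 197 there. Histone genes of a class are near copies, so their probe sets may share transcripts.

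Histone promoters of the H2A and H2B classes carry an octamer, ATTTGCAT, the site of the factor OCT1. It was searched on both strands of the 250 bases before each start in the RefSeq promoter table (GRCh38.p14). It lay in 5 of the 12 histone promoters and in 1.25% of the 11065 promoters matched to genes tested. Of those 5 histones, H2AC8 was not called. The 3 promoter stretches below belong to called histones and are shown for their octamer, in capitals, which in H2AC6 is on the reverse strand. They end at the base before the start, at chr6:26124032-26124171 (plus strand), chr6:26251494-26251613 (plus strand) and chr1:149886683-149886802 (minus strand), and the match shows only that the letters are there.
H2AC6: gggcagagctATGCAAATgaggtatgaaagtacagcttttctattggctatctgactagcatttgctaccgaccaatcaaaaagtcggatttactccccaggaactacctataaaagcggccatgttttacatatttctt
H2BC9: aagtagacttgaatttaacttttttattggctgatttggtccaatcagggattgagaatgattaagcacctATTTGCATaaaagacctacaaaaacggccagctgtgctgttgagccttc
H2BC21: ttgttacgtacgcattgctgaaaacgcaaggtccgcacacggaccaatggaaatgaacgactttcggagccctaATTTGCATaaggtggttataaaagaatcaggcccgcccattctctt

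Genes of DNA replication, which act in the same phase as the histones, had a median difference of 0.10, close to the 0.12 of all genes. Of 24 tested, limma called 0 (10.2% of all genes), and 6 had an unadjusted p under 0.05. The largest was -0.44 for the licensing factor CDC6 (SE 0.11, adjusted p = 0.0521). Of 25 mitotic genes 2 were called (8%), both with HGC-27 lower, and 22 lay below the median of all genes. The median response was -0.04 in AGS and -0.32 in HGC-27. UBE2C, the ubiquitin-conjugating enzyme of mitotic exit, read 5125, 4917 and 5204 in AGS against 4187, 3033 and 2990 in HGC-27, and its difference of -0.46 (SE 0.08, adjusted p = 0.0252) was called. The proliferation marker MKI67 had a larger but noisier difference of -0.60 (SE 0.17, adjusted p = 0.0679), and PLK1 (-0.43) and CENPF (-0.46) were not called either. In such bulk RNA fewer cells in mitosis and less mitotic RNA per cell cannot be told apart.

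Among genes of the endoplasmic reticulum, those called had the lower response in HGC-27 with 1 exception. Of 22 tested in the list of chaperones and the unfolded protein response, 8 were called with HGC-27 lower and 1 higher, 40.9% against 10.2% of all genes, and 21 lay below the median of all genes. The median response was -0.04 in AGS and -0.46 in HGC-27, where 8 of the 22 were at least 1.5-fold lower in both arrays and 1 was higher, against 0 and 0 in AGS. HERPUD1, which helps clear misfolded proteins, read 1754, 1677 and 1720 in AGS against 3456, 1742 and 1961 in HGC-27, so that its higher level in HGC-27 parental cells was gone after transfection (difference -0.86, SE 0.12, adjusted p = 0.0189). SEL1L, of the same degradation pathway, read 961, 928 and 921 in AGS against 1608, 945 and 979 in HGC-27 (difference -0.69, SE 0.11). Its 3 other probe sets gave -0.44, -0.31 and 0.24. The chaperone HYOU1 read 3662, 4143 and 3789 in AGS against 5015, 3585 and 3434 in HGC-27 (difference -0.63, SE 0.10).

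The stress sensor ERN1 went against its list, with 88.6, 110 and 108 in AGS against 92.1, 252.5 and 293 in HGC-27. Its difference was 1.26 (SE 0.20, adjusted p = 0.0235), and its 2 other probe sets gave 1.44 and -0.06. The other called members, not covered by the naming rule and picked with their values in view, were HSP90B1 at -0.62, MANF at -0.57, DNAJB9 at -0.55, PDIA6 at -0.48 and HSPA5 at -0.48. HSPA5, the main chaperone of the compartment, read 10550, 8952 and 8139 in AGS against 10140, 5882 and 5895 in HGC-27, lower in both lines and more so in HGC-27. DNAJB9 was higher after transfection in AGS, at 831, 1220 and 1260, and level in HGC-27, at 929, 941 and 953.

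Promoters of many such chaperones carry the endoplasmic reticulum stress response element, in which CCAAT and CCACG stand 9 bases apart and NF-Y and ATF6 bind. It was found in 6 of the 21 list promoters matched and in 0.127% of 11065, on either strand. The 2 stretches below are those of the called chaperones that have it, with the element in capitals, 1 copy in HSPA5 and 2 in HSP90B1 (the second on the reverse strand). They lie at chr9:125241344-125241463 (minus strand) and chr12:103930206-103930409 (plus strand). CALR, CANX, CRELD2 and XBP1 have it too and were not called.
HSPA5: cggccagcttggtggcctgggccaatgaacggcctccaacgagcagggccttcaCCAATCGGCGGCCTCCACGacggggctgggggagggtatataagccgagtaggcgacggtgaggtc
HSP90B1: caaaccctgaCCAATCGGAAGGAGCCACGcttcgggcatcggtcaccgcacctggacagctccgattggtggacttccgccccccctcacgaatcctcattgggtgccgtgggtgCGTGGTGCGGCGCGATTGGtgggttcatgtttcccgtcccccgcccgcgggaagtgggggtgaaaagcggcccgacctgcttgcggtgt

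ATF4 and its targets in amino acid supply had the lower response in HGC-27 wherever they were called. Of 24 tested, 9 were called with HGC-27 lower and 0 higher, 37.5% against 10.2%, and 22 lay below the median of all genes, with a median response of -0.07 in AGS and -0.40 in HGC-27. At least 1.5-fold lower in both transfected arrays were 9 of the 24 in HGC-27 and 3 in AGS. CHAC1, which breaks down glutathione, read 606, 438 and 442 in AGS against 716, 201 and 200 in HGC-27 (difference -1.37, SE 0.14, adjusted p = 0.00908). SLC7A11, the cystine transporter, read 285, 188.5 and 171 in AGS against 1749, 552 and 567 in HGC-27 (difference -0.98, SE 0.15). SESN2, a stress-induced inhibitor of mTORC1, read 701.5, 765 and 655 in AGS against 457.5, 253 and 210 in HGC-27 (difference -1.004, SE 0.22). CTH, the enzyme that makes cysteine from cystathionine, read 199, 187 and 178 in AGS against 898, 473 and 494 in HGC-27 (difference -0.77, SE 0.15). Beyond the naming rule, ASNS, asparagine synthetase, read 1038, 935 and 854 in AGS against 4135, 2253 and 2295 in HGC-27 (difference -0.65). ATF4 itself differed by -0.33, TRIB3 by -0.67, CEBPB by -0.46 and the transporter SLC7A5 by -0.32.

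The element that ATF4 binds with a C/EBP partner, TGATGNAA, lay in 3 of 20 list promoters matched and in 1.74% of 11065. It is shown in capitals for the called genes ASNS (chr7:97872409-97872528, minus strand) and CHAC1 (chr15:40953252-40953470, plus strand), in CHAC1 on the reverse strand. ATF3 has it too and was not called.
ASNS: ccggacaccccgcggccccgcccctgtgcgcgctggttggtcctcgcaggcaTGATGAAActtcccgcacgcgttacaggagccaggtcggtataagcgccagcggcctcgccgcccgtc
CHAC1: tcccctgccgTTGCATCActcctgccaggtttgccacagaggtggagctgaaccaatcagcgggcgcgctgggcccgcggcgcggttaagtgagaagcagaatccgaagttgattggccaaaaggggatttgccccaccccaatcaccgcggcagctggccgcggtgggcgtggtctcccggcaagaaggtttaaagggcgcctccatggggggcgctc

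Ribosome biogenesis genes had a higher response in HGC-27 than in AGS where the test called them. Of 19 tested, all 19 had a positive difference, and 6 were called with HGC-27 higher and 0 lower, 31.6% against 10.2%. The median response was -0.34 in AGS and 0.04 in HGC-27, and 2 of the 19 were at least 1.5-fold lower in both transfected AGS arrays, with 1 at least 1.5-fold higher in HGC-27. WDR43, of the small-subunit processome, read 1008, 497 and 467 in AGS against 895, 636 and 649.5 in HGC-27, lower in both (difference 0.59, SE 0.13, adjusted p = 0.0412). RRP9, which binds the U3 RNA of that complex, read 381, 335 and 337 in AGS against 301, 535 and 480 in HGC-27 (difference 0.94, SE 0.16). TAF1D, a factor of RNA polymerase I, differed by 0.74 (SE 0.17), and RRP12 by 0.60 without a call, its 2 other probe sets giving 0.37 and -0.80. The transcription factor MYC, which drives these genes in many cells and stood in the immediate early list, is likewise picked with its values in view. It read 3366, 1582 and 1794 in AGS against 5053, 4758 and 5199 in HGC-27, a difference of 0.98 (SE 0.13, limma adjusted p = 0.0172). A link between MYC and the ribosome biogenesis genes was not tested. For cytosolic ribosomal protein genes limma called 0 of 18, 3 with an unadjusted p under 0.05, and the median response was -0.0011 in AGS and 0.06 in HGC-27.

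Part of the YAP and TEAD targets had the higher response in HGC-27. Of 17 tested, 5 were called with HGC-27 higher and 0 lower, 29.4% against 10.2%, and 8 were at least 1.5-fold higher in both transfected HGC-27 arrays against 2 in AGS. AMOTL2, a negative regulator of YAP, read 1236, 1161 and 1360 in AGS against 282, 673 and 654 in HGC-27 (difference 1.21, SE 0.16, adjusted p = 0.0172). CCN2, the matricellular protein also called CTGF, read 3049, 2931 and 3704 in AGS against 87.9, 181 and 200.2 in HGC-27 (difference 1.003, SE 0.22). THBS1, thrombospondin-1, was higher after transfection in both lines, with 684, 1237 and 1339 in AGS against 50.6, 196 and 215 in HGC-27 (difference 1.11, SE 0.16), but 2 of its 4 other probe sets had the opposite sign. ANKRD1 differed by 0.92 without a call (SE 0.24, adjusted p = 0.0597), lower in AGS after transfection, at 356.5, 188 and 204, and at or near the floor in HGC-27. Beyond the naming rule, the called members AJUBA and LATS2 differed by 0.80 and 0.79. Of the 17, 5 had negative differences, the lowest F3 at -0.85, not called.

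The TEAD motif GGAATG is short and lay in 9.44% of 11065 promoters. It was in 4 of 11 list promoters matched, among them ANKRD1 and PTPN14, which were not called. It lay 3 times in CCN2 (chr6:131951373-131951551, minus strand) and once in THBS1 (chr15:39580959-39581078, plus strand), the called genes shown here with the motif in capitals.
CCN2: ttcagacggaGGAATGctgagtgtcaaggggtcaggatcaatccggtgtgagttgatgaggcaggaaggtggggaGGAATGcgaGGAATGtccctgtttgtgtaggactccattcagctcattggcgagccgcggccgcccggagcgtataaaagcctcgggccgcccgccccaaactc
THBS1: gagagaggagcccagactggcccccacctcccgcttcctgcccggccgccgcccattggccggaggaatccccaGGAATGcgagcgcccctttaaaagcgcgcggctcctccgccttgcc

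**Figure D3:**
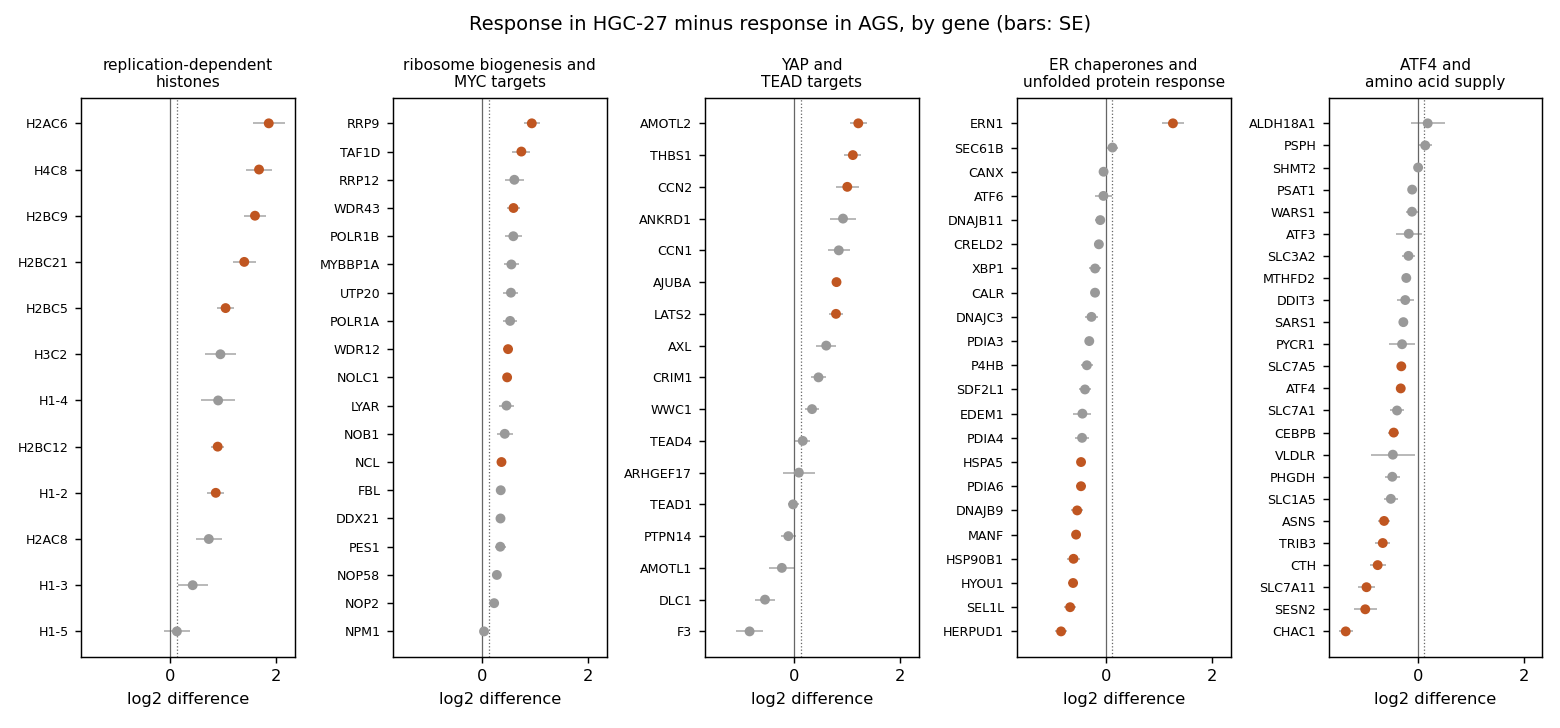
Difference between the lines (HGC-27 response minus AGS response, log2) of each gene tested in 5 lists, with bars of 1 SE; orange points are called, the solid line is 0 and the dotted line the median of all genes, 0.12. All 12 histone and all 19 ribosome biogenesis genes lie above 0, while 20 of 22 endoplasmic reticulum and 22 of 24 ATF4 genes lie below it.

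Genes of cell contact and structure were split. Of 21 epithelial adhesion genes tested, 1 was called with HGC-27 higher and 3 lower (19.0% against 10.2%). CDH1, E-cadherin, read 221, 286 and 291 in AGS against 22.1, 89.8 and 75.4 in HGC-27, a difference of 1.51 (SE 0.22, adjusted p = 0.0197), with 0.37 by its other probe set. The desmosome protein DSP read 5089, 5845 and 5666 in AGS against 109, 65.9 and 53.2 in HGC-27 (difference -1.06, SE 0.19), and the keratin KRT18 read 14740, 16980 and 16830 in AGS against 35.8, 22.8 and 21.9 in HGC-27 (difference -0.88, SE 0.12). In HGC-27 both were dim, so these differences rest on steps near background. PKP2 differed by 0.78 without a call. Of 19 actin cytoskeleton genes 2 were called (10.5%), while 5 were at least 1.5-fold higher in AGS and 5 in HGC-27, with median responses of 0.52 and 0.44. Non-muscle myosin MYH9 read 2423, 4015 and 4065 in AGS against 1839, 1991 and 2091 in HGC-27 (difference -0.59, SE 0.09, adjusted p = 0.0197). The transcription factor SRF had the opposite sign at 0.78 (SE 0.16), with -0.17 by its other probe set. TAGLN differed by -0.84 and TPM2 by 0.44, neither called.

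Of 15 HLA class I presentation genes 1 was called (6.67%, under the background), the peptide transporter TAP2 at 0.78 (SE 0.14, adjusted p = 0.0277), though its 2 other probe sets gave -0.18 and -0.03. HLA-B and HLA-C were 1.5-fold higher in both transfected AGS arrays, HLA-B at 2482, 3842 and 3819, against 1348, 1589 and 1341 in HGC-27. Their differences of -0.51 (SE 0.15) and -0.52 (SE 0.17) were not called, and PSMB10 differed by 0.66. Of 22 interferon response genes 3 were called (13.6%), and 9 were at least 1.5-fold higher in AGS against 4 in HGC-27. OAS1, the sensor of double-stranded RNA, read 564, 1192 and 1181 in AGS against 82.3, 54.8 and 61.6 in HGC-27 (difference -1.58, SE 0.17, adjusted p = 0.0119), with -1.23 by its other probe set, under the floor in HGC-27. Among markers of other cell types 1 of 7 was called (14.3%), the collagen COL1A1 at -0.93 (SE 0.12), which read 682, 1314 and 1164 in AGS against 5944, 5708 and 5620 in HGC-27. DCN, PECAM1 and LUM differed by -0.43, -0.25 and -0.22 without a call.

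In the Wnt list 4 of 17 genes were called, all 4 with HGC-27 higher and by at least 2-fold (23.5% against 10.2%). The secreted antagonist DKK1 read 9009, 11060 and 11440 in AGS against 533, 2421 and 2762 in HGC-27, a difference of 1.96 (SE 0.12, adjusted p = 0.00249). In the TGF-beta list 4 of 16 were called (25%), all with HGC-27 higher. Of the 16, 7 had negative differences, the lowest at -0.84, none of them called. BAMBI, a decoy receptor, read 4809, 6027 and 6151 in AGS against 1019, 3410 and 3910 in HGC-27 (difference 1.50, SE 0.12, adjusted p = 0.00486), and beyond the naming rule SKIL differed by 1.19, SMAD6 by 1.07 and SMAD7 by 0.82. Of 16 p53 targets 3 were called higher and 1 lower (25%). TP53INP1 differed by 1.61 with a parental HGC-27 value under the floor, and -0.30 by its other probe set, and GDF15, outside the rule, by -1.39.

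The counts of the remaining lists are read against the 10.2% called among all genes. Of 21 lysosomal genes 3 were called (14.3%). NEU1, the sialidase of lysosomes, read 1148, 350 and 357 in AGS against 744, 846 and 839.5 in HGC-27, a difference of 1.88 (SE 0.12, adjusted p = 0.00318). Of 15 NF-kB and inflammatory genes 4 were called (26.7%), led by the chemokine CCL2, which read 114, 668 and 745 in HGC-27 and was under the floor in AGS. Of 22 immediate early genes 4 were called (18.2%), with PHLDA1 at 1.69 (SE 0.21), while its 5 other probe sets gave -0.01 to 2.13. Of 23 mesenchymal and matrix genes 4 were called (17.4%), with the matrix protein tenascin-C (TNC) at 3.45 from values under the floor in AGS. Of 15 heat shock genes 2 were called (13.3%), CRYAB at 0.90 among them, and of 18 NRF2 genes 4 (22.2%), while AKR1C1, the largest there at -1.07, was not. Of 16 integrins and receptors 2 were called (12.5%), with ITGA2 at -0.81, whose probe set was under the floor in all 3 HGC-27 arrays, so that its p is too small. Of 24 hypoxia and glycolysis genes 3 were called (12.5%), while SLC2A3 at 1.17 (SE 0.46) was not.

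Of 23 respiratory chain genes 2 were called (8.7%), with NDUFB8 at 0.43 and its 2 other probe sets at 0.04 and 0.09. Of 19 autophagy genes 2 were called (10.5%), and both lists are near the 10.2% of all genes. The cargo receptor SQSTM1 differed by -0.68, while its 3 other probe sets that passed the filter gave -0.17, 0.06 and 0.64. Of 13 cholesterol synthesis genes limma called 0, 2 with an unadjusted p under 0.05, with SC5D the largest at 0.63 (adjusted p = 0.0526), and the median response was -0.37 in AGS and -0.20 in HGC-27, lower than parental cells in both. Of 8 mitochondrially encoded and nuclear long RNAs limma called 0, 1 with an unadjusted p under 0.05. MALAT1, the nuclear long RNA, was lower after transfection in both lines, with responses of -3.02 in AGS and -2.16 in HGC-27. Its difference of 0.87 (SE 0.27, adjusted p = 0.0873) was not called by limma. The 11 other MALAT1 probe sets that passed the filter had differences of the same sign, from 0.13 to 1.76. RPS27L was the largest of the ribosomal protein genes at 0.28 (SE 0.44).

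**Figure D4:**
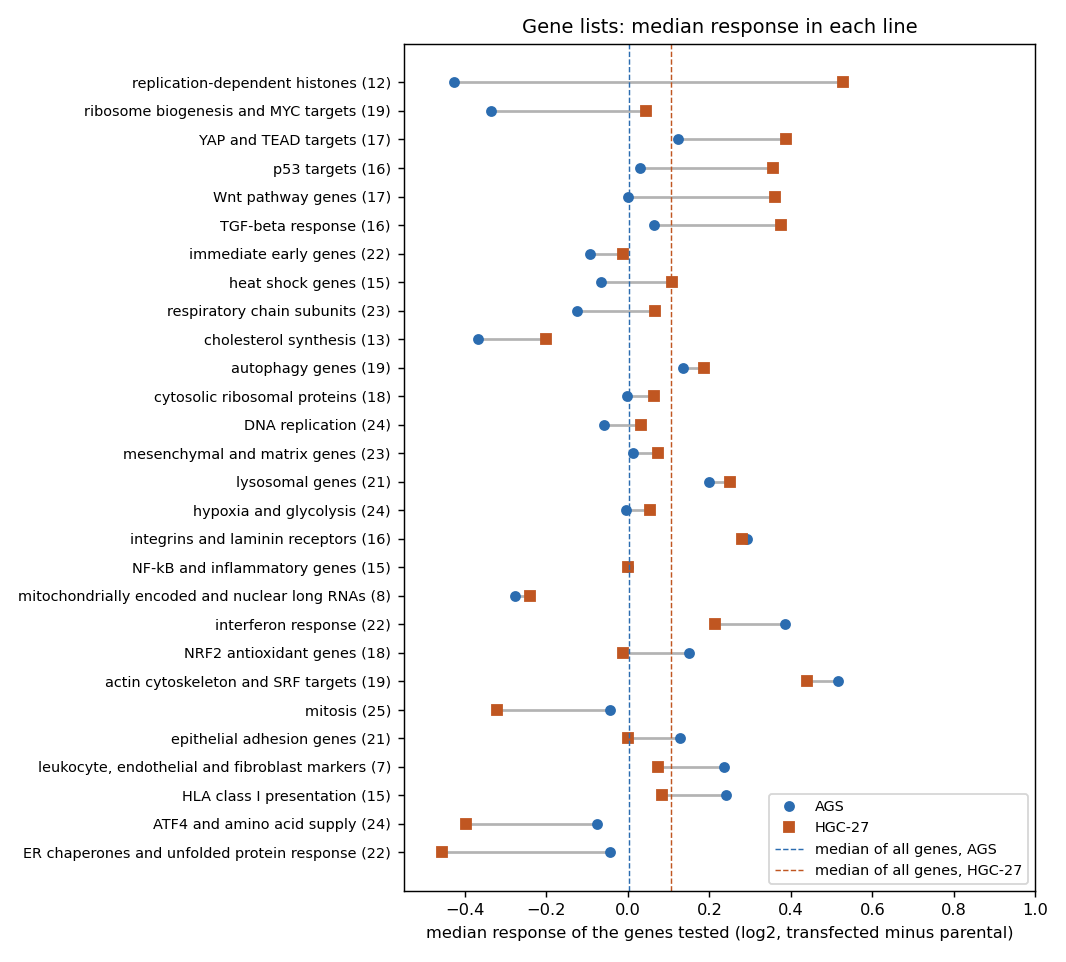
Median response (log2, transfected minus parental) of the genes tested in each of 28 lists, with AGS as blue circles and HGC-27 as orange squares, the number tested in brackets, and dashed lines at the median of all genes in each line. Histones lie at -0.43 in AGS and 0.53 in HGC-27, and the endoplasmic reticulum list at -0.04 and -0.46.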

How the data were processed

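RNA of 6 samples was read on 1-colour Affymetrix arrays of 54675 probe sets. The values used are the authors' deposited intensity per probe set, on a linear scale from 0.48 to 19070.49. dChip is the analysis program given in the series' design text; background correction and scaling are not given in the sources used here, and array medians of 49.12 to 51.96 show scaled arrays. Probe sets with 1 gene in the platform annotation (41097) were named through RefSeq gene IDs, 25954 passed a filter (at least 2 of 6 arrays above 50.53), and the probe set with the highest mean stood for each of 13738 genes. Values were floored at 17.6 and tested with limma 3.58.1 (lmFit, eBayes with a trend) in R 4.3.3. The script was tested on simulated data. The median SE of a difference was 0.18, and the number of arrays limits the precision. An exact permutation test of 2 against 2 arrays cannot go below 0.333. Alternatives varied the floor, filter, scaling, probe set choice, trend, MIST1 term, fold limit, treat test and arrays.

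Named genes were the 8 largest called differences each way among genes above the median in both lines, up to 6 opposite genes each way, up to 3 line-restricted genes per line, and up to 4 members of the 10 lists farthest from all genes or 1 of the others. Members, lists and motifs were chosen with earlier results of these data known.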

Additional observations from a re-analysis of the deposited data

Results flagged for a closer look

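The number of genes whose response to transfection differed between the lines, 1401, is listed because the difference itself was tested with limma's contrast between the lines. For the same reason the 66 named genes that passed that test are listed here with their difference (HGC-27 response minus AGS response, log2). Outside the gene lists, the values with HGC-27 higher were GPR39 3.30, BMP4 2.99, CCDC80 2.93, CDC42EP5 2.90, POLD4 2.82, ACTL8 2.79, HES1 2.62, MVP 2.42, PHYHIPL 2.42, SOCS3 2.15, SYNC 2.15, CXCL14 4.23, IL7R 4.14 and SOST 3.90. Those with HGC-27 lower were SLC1A6 -6.51, ATP8A2 -3.70, FAM81A -3.10, RARRES2 -2.95, LDAH -2.75, MINK1 -2.73, C2orf72 -2.63, ABCA3 -2.47, MAP1B -2.27, SALL2 -2.29, EPHA5-AS1 -1.84, FPR3 -2.77, KRTAP3-1 -3.80 and IGFL1 -2.97. The limits given above hold here too. Values of SLC1A6, ATP8A2, LDAH and MINK1 describe their probe sets, the direction of FAM81A depends on the probe set, and calls with an arm held at the floor have p-values that are too small. Among members of the gene lists, the values with HGC-27 higher were H2AC6 1.86, H4C8 1.68, H2BC9 1.60, H2BC21 1.40, ERN1 1.26, RRP9 0.94, TAF1D 0.74, WDR43 0.59, TAP2 0.78, AMOTL2 1.21, THBS1 1.11, CCN2 1.003, CDH1 1.51, SRF 0.78, TP53INP1 1.61, DKK1 1.96, BAMBI 1.50, CCL2 2.62, NEU1 1.88, PHLDA1 1.69, CRYAB 0.90, TNC 3.45 and NDUFB8 0.43. Those with HGC-27 lower were HERPUD1 -0.86, SEL1L -0.69, HYOU1 -0.63, CHAC1 -1.37, SESN2 -1.004, SLC7A11 -0.98, CTH -0.77, COL1A1 -0.93, DSP -1.06, KRT18 -0.88, UBE2C -0.46, MYH9 -0.59, OAS1 -1.58, ITGA2 -0.81 and SQSTM1 -0.68.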

How the results depend on the processing

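The 66 called named genes kept their sign under every alternative in which they were measured. Every alternative used the same parental array of each line, so the kept signs do not test the parental values. Of these 66 genes, 0 stayed called under all alternatives, and 14 under those that left out no array and tested against 0. Signs were less uniform across probe sets. Of the 86 named genes, 43 had other probe sets that passed the filter, 90 in all. Of these 90, 69 had the sign of the probe set that stood for the gene. For 29 of the 43 genes all other probe sets had it. Counts of calls moved more than signs across the alternatives. With the floor at the median 110 genes were called (66 with HGC-27 higher, 44 lower), 97 of them at 2-fold (54 and 43), and 8 genes were up in AGS and down in HGC-27 and 10 the reverse. With no filter on dim probe sets 653 were called (373 higher), 144 at 2-fold (86 and 58), and the median difference was 0.035. Without a variance trend 178 were called (118 and 60), all 178 at 2-fold. A common MIST1 term gave 3658 (2716 and 942), and treat against 1.5-fold gave 43 (29 and 14), all at 2-fold. Quantile normalization gave 1019 calls, 517 with HGC-27 higher, and a median difference of -0.006. Centring gave 406 higher and 851 lower, 175 and 363 at 2-fold, a median difference of -0.093 and 10 genes down in AGS and up in HGC-27.

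Without a floor, opposite genes numbered 26 (up in AGS) and 32 (down in AGS), at a fold limit of 1.2 they numbered 117 and 233, and at 2 they numbered 3 and 2. Leaving out 1 transfected array gave 0 calls for each count, in each direction and at 2-fold, with 3034 genes at an unadjusted p under 0.05 without the AGS GFP control, 2660 without AGS +MIST1, 3635 without the HGC-27 GFP control and 3803 without HGC-27 +MIST1. Opposite genes then numbered 19 to 29 (up in AGS; 29 without HGC-27 +MIST1) and 22 to 29 (down in AGS; 29 without the AGS GFP control). These fits keep 1 residual degree of freedom, and a lone array is assumed to vary like the pair of the other line. A parental array cannot be left out, since its line then has no response. The median of a list minus that of all genes kept its sign in every setting for 16 of 28 lists and changed sign in at least 1 setting for 12, 9 of them within 0.1 of 0 as reported. The 3 farther from 0 were NF-kB (0.18 without a floor), TGF-beta (-0.083 without a floor, -0.015 with the mean of all probe sets) and mitochondrially encoded and nuclear long RNAs (-0.19 to 5e-04 over the left-out arrays, the latter without AGS +MIST1). The others were hypoxia (-0.15 to 0.060 over all settings), lysosomal (-0.087 to 0.0064), immediate early (-0.012 to 0.18), heat shock (-0.0039 to 0.14), mesenchymal (-0.098 to 0.031), cholesterol (-0.072 to 0.12), autophagy (-0.0040 to 0.10), DNA replication (-0.087 to 0.064) and ribosomal protein genes (-0.028 to 0.084). The cause was not tested. No paired analysis was possible because each group has 1 array and the labels carry no replicate numbers. Values near the floor and genes with 1 probe set limit what the arrays can show.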
